A study of Rattus norvegicus with 30 samples.

Results

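Mitochondrial ribosomal protein genes were taken as all probe sets of the array whose single annotated symbol begins with *Mrpl* or *Mrps* and a number, with the probe set of the highest mean over all arrays standing for each gene. This gave 73 genes, 27 named *Mrps* and 46 named *Mrpl*, out of 14217 genes with a symbol of their own. They hold 97 probe sets of the 31042 tested. Whole kidneys of male pups of the stroke-prone spontaneously hypertensive rat (SHRSP) were measured on GeneChip rat genome arrays, with RNA primed from the 3′ end, in 6 groups of 5 arrays. The dams had been fed a 9% casein diet (LP) or a 20% casein diet (CN) in pregnancy, and all dams of both groups were moved to one commercial diet after delivery. Pups were killed on postnatal day 5 (D5-LP and D5-CN), day 10 (D10-LP and D10-CN) and day 28 (D28-LP and D28-CN). The labels call the arrays biological replicates, but the methods speak of RNA pooled within a group and the litters are not given, so that p-values measure only the spread between arrays, which may be technical.

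The proteins studied here build the ribosome of the mitochondrion. They are encoded in the nucleus, made in the cytosol, imported, and assembled on ribosomal RNA transcribed from mitochondrial DNA. The finished ribosome translates the few respiratory chain and ATP synthase subunits that mitochondrial DNA encodes, and the kidney, whose tubule cells are rich in mitochondria, draws most of its ATP from them. Many of the proteins have a counterpart in the bacterial ribosome, while others were gained by mitochondria. The name does not always give the place, since in mammals *Mrps18a* and *Mrps30* code for proteins of the large subunit. By place, 25 of the genes belong to the small and 48 to the large subunit.

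The promoters of these genes are described first. The window of 250 bases before to 50 bases after the start was available from RefSeq (build GRCr8) for 59 of the 73 genes and was searched on both strands for letters known from nuclear genes of mitochondrial proteins. TGCGCA, the core of the site of the factor NRF-1, stood in 16 of the 59 windows (27.1%), against 12.2% of 11700 measured genes with a window. The 10-letter palindrome of NRF-1, whose ends can overlap this core, stood in 4 (6.78%, against 1.65%). CCGGAAG, bound by ETS factors such as GABP, stood in 20 (33.9%, against 15.4%). AANATGGC, bound by YY1, stood in 21 (35.6%, against 9.17%), and these letters hold an ATG and may cover a start codon. The SP1 letters GGGCGG stood in 30 (50.8%, against 58.6%). In the windows of 71 respiratory chain and ATP synthase genes the NRF-1 core, ETS and YY1 letters stood in 26.8%, 28.2% and 42.3%. Counting NRF-1 core, ETS and YY1 letters as 3 kinds, 17 of the 59 windows held none, 31 held 1 kind, 7 held 2 and 4 held all 3. Printed below are the promoters of *Mrpl32* (chr17:55260401-55260700, plus strand), a gene whose level was lower at each later age, of *Mrps18b* (chr20:2842756-2843055, plus strand), a gene called higher at D28, and of *Mrpl36* (chr1:31795072-31795371, minus strand), a gene with no call between ages in the deposited values. The capitals mark the NRF-1, ETS and YY1 letters in either direction.
Mrpl32: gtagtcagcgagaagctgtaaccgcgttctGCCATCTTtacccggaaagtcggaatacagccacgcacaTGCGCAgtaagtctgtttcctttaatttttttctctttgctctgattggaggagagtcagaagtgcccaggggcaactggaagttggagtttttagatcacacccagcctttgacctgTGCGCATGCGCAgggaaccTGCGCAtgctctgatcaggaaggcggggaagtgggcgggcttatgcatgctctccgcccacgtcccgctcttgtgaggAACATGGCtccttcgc
Mrps18b: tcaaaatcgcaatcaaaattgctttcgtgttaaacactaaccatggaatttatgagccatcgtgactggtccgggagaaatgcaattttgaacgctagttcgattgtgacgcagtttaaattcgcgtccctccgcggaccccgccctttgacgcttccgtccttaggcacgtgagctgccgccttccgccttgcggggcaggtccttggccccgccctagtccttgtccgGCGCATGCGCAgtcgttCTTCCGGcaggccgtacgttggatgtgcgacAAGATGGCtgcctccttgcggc
Mrpl36: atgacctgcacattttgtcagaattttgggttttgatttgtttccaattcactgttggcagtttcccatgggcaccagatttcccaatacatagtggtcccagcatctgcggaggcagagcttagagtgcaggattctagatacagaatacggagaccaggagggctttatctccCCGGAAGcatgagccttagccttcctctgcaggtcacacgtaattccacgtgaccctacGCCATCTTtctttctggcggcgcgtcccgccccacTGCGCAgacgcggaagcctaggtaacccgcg
The first held NRF-1 and YY1 letters, and the other 2 held letters of all 3 kinds. These 3 were picked for their courses from the windows that held the 10-letter NRF-1 palindrome or letters of all 3 kinds. They are therefore not typical of the 59, and no relation between letters and course was tested. A match describes the sequence and is not evidence of binding.

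The values are log2 expression levels as the authors deposited them. Arrays of a group correlated at 0.983 to 0.998 over all probe sets. All 73 genes had a mean above the median probe set. Of the 73 genes, 18 had more than 1 probe set, and 21 have a pseudogene named in the rat annotation whose transcripts the probes might also bind. Tubule markers were well expressed at each age, with array means of 11.0 to 12.2 for 10 proximal tubule markers, and the array means of 9 skeletal muscle markers (4.80 to 5.15) and 7 adrenal markers (4.59 to 5.46) were low at each age. Markers of adipose tissue (7 genes) had array means of 5.87 to 6.16 at D5, with 6.60 to 8.19 for the D10 arrays and 6.74 to 7.38 at D28. The mean over all probe sets was 6.92 to 6.94 in the D5 arrays, 6.85 to 6.87 in the D10 arrays and 6.86 to 6.87 in the D28 arrays, and the authors' result tables were made age by age, so the ages may have been normalized apart. Comparisons between ages therefore hold with the limit that age and normalization run cannot be told apart, and each is given beside the shift of all probe sets and beside quantile normalization over all 30 arrays.

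In the deposited values the mitochondrial ribosomal protein genes were lower at D10 than at D5 almost without exception. The mean of the 73 genes was 9.84 to 9.96 in the D5 arrays, 9.34 to 9.79 in the D10 arrays and 9.55 to 9.78 in the D28 arrays, and no D10 or D28 array reached the lowest D5 array. In D10 minus D5, averaged over the diets, 67 of the 73 genes were lower at an adjusted p under 0.05 (limma over all probe sets, Benjamini-Hochberg) and none was higher, where 39.3% of all probe sets tested were lower and 18.4% were higher. The median difference was −0.31 on the log2 scale, against −0.07 over all probe sets, and 71 genes had a difference below 0 (62.4% of all probe sets) and 2 above it (37.6%). In 30 genes the 10 arrays of D10 all lay below the 10 arrays of D5 (11.6% of all probe sets), and in 0 all lay above them (3.45%). The changes were small: 3 of the 73 genes were lower by at least 0.5 (5.32% of all probe sets) and 0 higher by as much (3.35%). Other settings gave more exceptions. Under quantile normalization 56 genes were lower and 2 higher (28.1% and 26.5% of all probe sets). Without the 5 D10 arrays in which control probes had a high 3′ minus 5′ difference, described below, 52 were lower and 2 higher (33.2% and 13.5%).

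**Figure D1:**
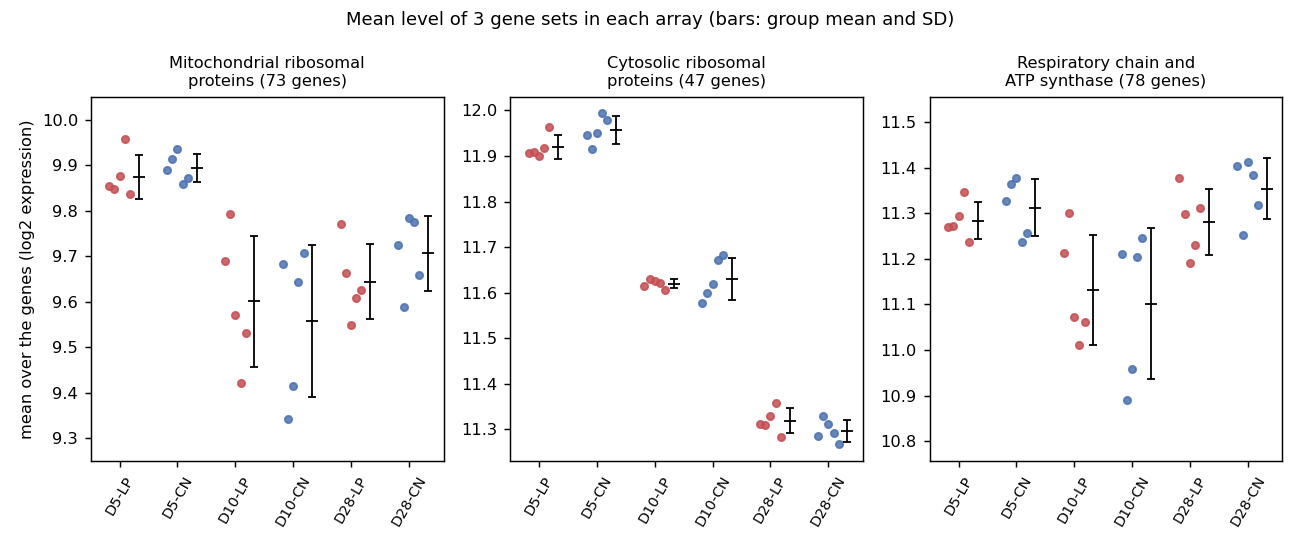
Mean log2 expression of 3 gene sets in each array (vertical axis), by group (horizontal axis). Points are arrays, and bars are the group mean and SD (n = 5 arrays). The mitochondrial ribosomal protein mean was at least 9.84 in every D5 array and at most 9.79 in every later array, the cytosolic mean was lower at each later age, and the respiratory chain mean was lowest at D10.

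*Mrps9*, whose protein sits in the head of the small subunit and has a bacterial counterpart, had the largest difference in size. It ranged from 8.50 to 9.43 at D10 (median 9.00, 10 arrays), against 9.48 to 9.89 at D5 (median 9.61). Its D10 minus D5 difference was −0.65 ± 0.11 (SE, limma adjusted p = 2.1e-05), with no overlap between the ages. *Mrps30*, a large subunit protein without a bacterial counterpart, ranged from 9.11 to 9.72 at D10 (median 9.44), against 9.72 to 10.07 at D5 (median 9.89), a difference of −0.50 ± 0.07 (adjusted p = 7.4e-07). *Mrpl35* (−0.49 ± 0.05), *Mrpl1*, of the stalk at the exit site (−0.49 ± 0.06), and *Mrps35*, of the small subunit (−0.48 ± 0.05), were the next among the genes without overlap. *Mrpl30* (−0.55) and *Mrpl50* (−0.52) had larger differences but overlapped. Both subunits took part. Of the genes with a bacterial counterpart, 12 of 16 in the small and 26 of 28 in the large subunit were lower, and all 9 small subunit and all 20 large subunit genes without one were lower. The 6 genes with no call in the deposited values were *Mrpl10*, *Mrpl36*, *Mrps2*, *Mrps7*, *Mrps16* and *Mrps18b*, which all have a bacterial counterpart. Other settings also lost calls of genes without a counterpart. These were *Mrps23*, *Mrps25*, *Mrps34* and *Mrpl43* under quantile normalization. Without the 5 D10 arrays of high 3′ minus 5′ difference they were *Mrps25*, *Mrps34*, *Mrpl40*, *Mrpl50*, *Mrpl51* and *Mrpl57*. Under quantile normalization 56 of the 67 calls were kept, the median was −0.19, and *Mrps7* (0.17) and *Mrpl36* (0.27) were called higher, while 28.1% of all probe sets were lower and 26.5% higher. The share of higher calls among all calls over all probe sets was 31.9% in the deposited values, 48.6% after quantile normalization and 41.6% after median centring.

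Between D10 and D28 no common direction held in the average over the diets. In D28 minus D10, 34 genes were higher and 14 were lower, where 37.5% of all probe sets were higher and 33.7% lower, and the median was 0.09, against 0.02 over all probe sets. Quantile normalization gave 34 higher and 16 lower with a median of 0.09, and then 36.5% of all probe sets were higher and 34.6% lower. In the CN arrays alone 33 genes were higher and 4 lower, and in the LP arrays alone 18 were higher and 14 lower. These 2 fits called 18013 and 18656 of all probe sets in either direction. No member was called for a change of the diet difference between D10 and D28. Without the 5 D10 arrays in which control probes had a high 3′ minus 5′ difference, a measure of RNA integrity defined with the spread within an age, 15 were higher and 24 lower and the median was −0.00. *Mrps25*, a small subunit protein without a bacterial counterpart, ranged from 10.21 to 10.67 at D28 (median 10.52), against 9.61 to 10.14 at D10 (median 9.93). The 2 ages did not overlap, and the difference was 0.60 ± 0.07 (adjusted p = 1.4e-08). *Mrpl54*, of the large subunit, ranged from 11.02 to 11.16 at D28 (median 11.10), against 10.46 to 10.81 at D10 (median 10.62), a difference of 0.46 ± 0.04 (adjusted p = 1.1e-11). *Mrps15* (0.34 ± 0.04), *Mrpl34* (0.33 ± 0.04) and *Mrpl16* (0.33 ± 0.04) were the next among the 9 genes whose D28 arrays all lay above the D10 arrays (13.7% of all probe sets). *Mrps27*, whose protein belongs to a family of RNA-binding proteins, was the 1 gene with all D28 arrays below all D10 arrays (15% of all probe sets). It ranged from 7.44 to 7.67 at D28 (median 7.53), against 7.80 to 8.21 at D10 (median 7.99), a difference of −0.44 ± 0.05 (adjusted p = 8.5e-09). *Mrps6* had a larger difference than *Mrps25* (0.62 ± 0.08) but its D28 values of 11.18 to 11.86 overlapped the D10 values of 10.53 to 11.20.

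Over the whole span, in D28 minus D5, 44 genes were lower and 9 were higher, where 41% of all probe sets were lower and 33.5% higher. The median was −0.18, against −0.03 over all probe sets, 57 genes had a difference below 0 (53.4% of all probe sets), and 31 genes had all D28 arrays below all D5 arrays (23.9% of all probe sets). *Mrps27* had the largest difference, with 7.44 to 7.67 at D28 (median 7.53), against 8.16 to 8.51 at D5 (median 8.42), or −0.82 ± 0.05 (adjusted p = 9.3e-15). *Mrpl32*, a large subunit protein whose maturation by a mitochondrial protease is known from mouse, ranged from 9.43 to 9.89 at D28 (median 9.72), against 10.33 to 10.55 at D5 (median 10.43), or −0.72 ± 0.08 (adjusted p = 1.4e-09). *Mrpl1* (−0.69 ± 0.06), *Mrpl20* (−0.64 ± 0.08) and *Mrpl28* (−0.63 ± 0.07) followed. In the other direction, *Mrpl54* was the 1 gene whose D28 arrays all lay above the D5 arrays (14.8% of all probe sets), with 11.02 to 11.16 at D28, against 10.80 to 10.96 at D5 (0.19 ± 0.04, adjusted p = 3.9e-05). *Mrps6* (0.42 ± 0.08) and *Mrps25* (0.38 ± 0.07) had larger differences and overlapped. Under quantile normalization 33 genes were lower and 15 higher with a median of −0.09. Over all probe sets 36.1% were then lower and 39.2% higher, with a median of 0.02. All of the 9 higher calls were kept, and *Mrps27* was at −0.72.

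**Figure D2:**
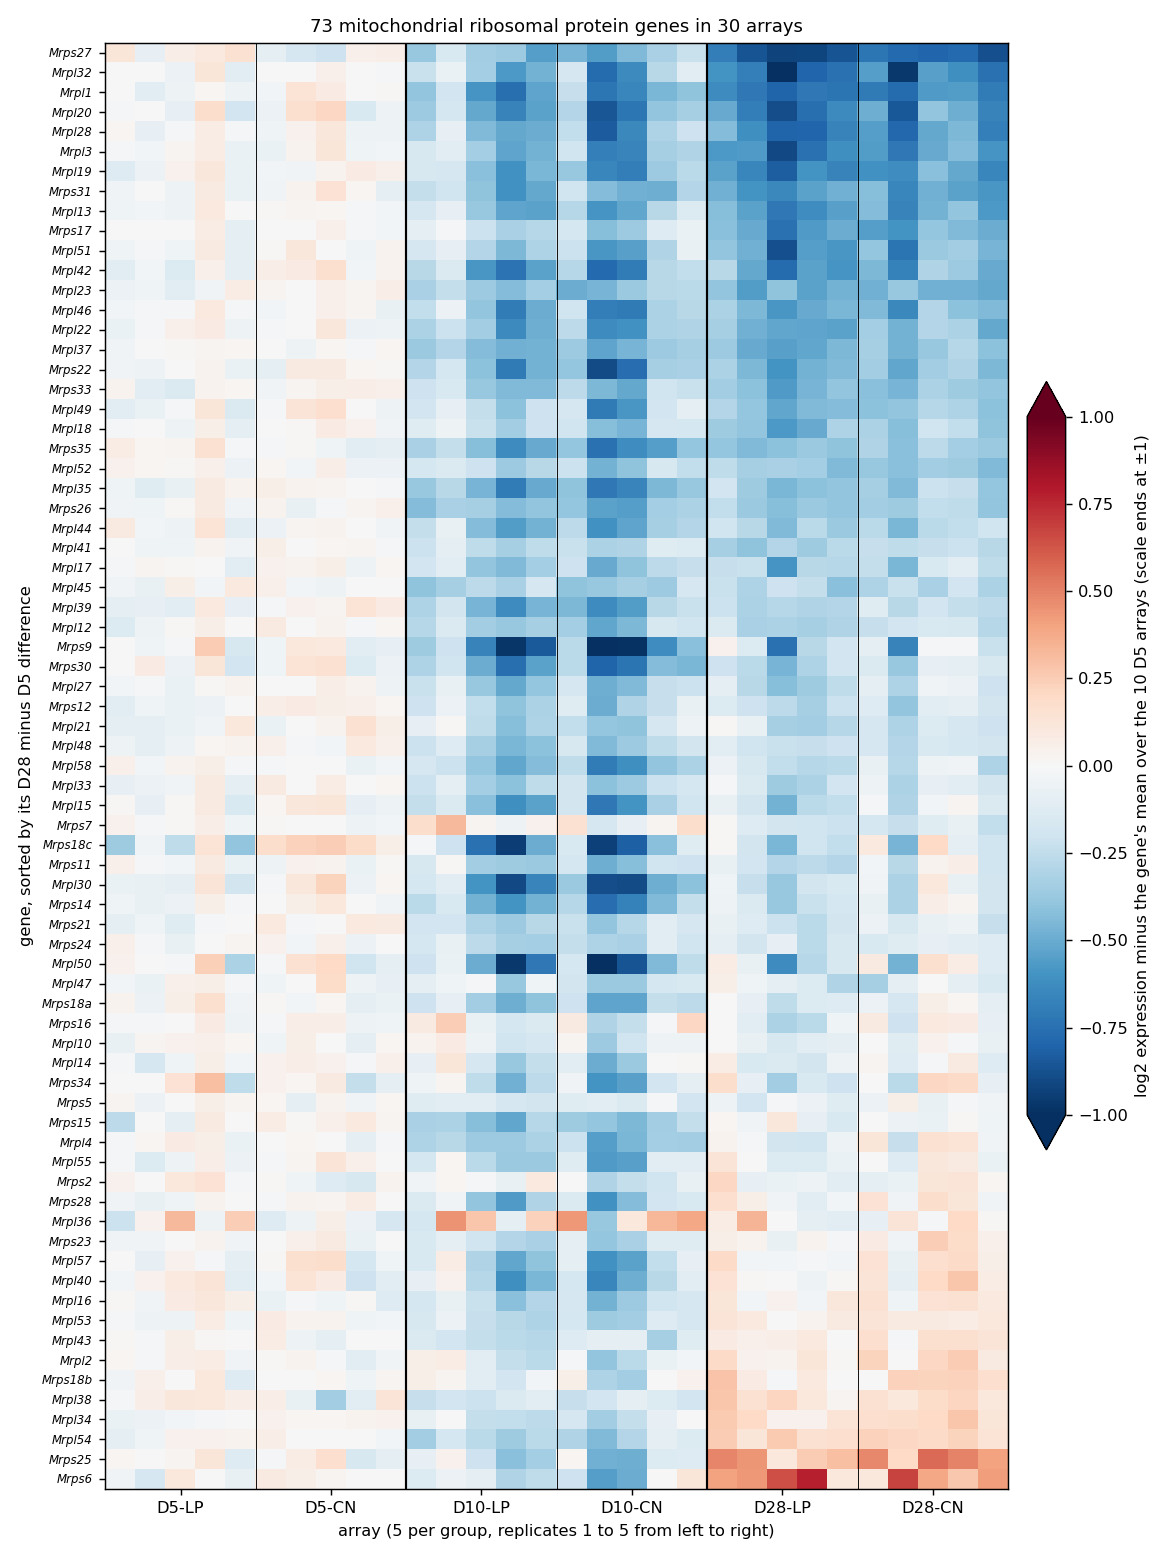
Log2 expression of the 73 genes (rows, sorted by D28 minus D5) in the 30 arrays (columns, 5 per group), minus the gene's mean over the 10 D5 arrays. Nearly all rows are blue at D10, the upper rows are darkest at D28 with *Mrps27* at −0.82, and the lowest rows are red at D28 with *Mrps6* at 0.42. Within D10, 5 columns are darker than the other 5.

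Taking the 2 steps together, 33 genes were lower at D10 and higher again at D28, 21 were lower at D10 with no call after it, and 13 were lower at both steps. Of all probe sets, 39.3% were lower in D10 minus D5, and 37.5% were higher and 33.7% lower in D28 minus D10. The 2 steps share the D10 arrays with opposite sign and are not independent, so low D10 values alone can give lower and then higher. Under quantile normalization 25 of the 33 and 12 of the 13 kept their pattern, and without the 5 D10 arrays of high 3′ minus 5′ difference 9 of the 33 and 11 of the 13 did. The 13 were *Mrpl1*, *Mrpl3*, *Mrpl13*, *Mrpl18*, *Mrpl19*, *Mrpl23*, *Mrpl28*, *Mrpl32*, *Mrpl51*, *Mrpl52*, *Mrps17*, *Mrps27* and *Mrps31*. Of the 33, 8 ended above D5 (*Mrpl2*, *Mrpl34*, *Mrpl38*, *Mrpl43*, *Mrpl53*, *Mrpl54*, *Mrps6* and *Mrps25*), 11 remained below it and 14 were not called against D5. *Mrpl10*, *Mrpl36*, *Mrps2* and *Mrps16* had no call in any comparison of ages in the deposited values. Under quantile normalization *Mrps2* was called higher in D28 minus D10 (0.12) and D28 minus D5 (0.11), and *Mrpl36* in D10 minus D5 (0.27). Without those 5 D10 arrays *Mrps16* was called lower in D28 minus D10 (−0.20). In that fit *Mrpl36* was called higher in D10 minus D5 (0.26) and lower in D28 minus D10 (−0.21). *Mrps16*, mutated in a human disorder of mitochondrial translation, ranged from 10.17 to 10.30 in the D5 arrays, 9.92 to 10.47 in the D10 arrays and 9.91 to 10.32 in the D28 arrays, so the later ages spread widely around the D5 level.

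Members with related roles did not always share a course. The 3 paralogues of the bacterial protein S18 differed in the deposited values: *Mrps18a*, in the large subunit, had a D10 minus D5 difference of −0.33 ± 0.05 and *Mrps18c* one of −0.48 ± 0.11, both lower, while *Mrps18b* was not called (−0.08 ± 0.05). The *Mrps18c* call was kept under quantile normalization (−0.42). It was lost without the 5 D10 arrays of high 3′ minus 5′ difference (−0.17), where *Mrps18a* was still lower (−0.19) and *Mrps18b* not called (0.04). At D28 *Mrps18b* ranged from 9.75 to 10.05, against 9.64 to 9.87 at D5 (0.13 ± 0.05, adjusted p = 0.027). That call was lost when D5-LP replicate 5 (0.12) or D28-LP replicate 1 (0.11) was left out. Of the stalk proteins that recruit translation factors, *Mrpl12* was lower at D28 (−0.24 ± 0.04 against D5) and *Mrpl10*, its anchor, was not called (−0.06 ± 0.04). *Mrpl45*, which tethers the human ribosome to the inner membrane, was lower (−0.28 ± 0.04, against D5). Of 3 more genes mutated in human mitochondrial disease, *Mrps22* (−0.42 ± 0.07), *Mrpl3* (−0.62 ± 0.06) and *Mrpl44* (−0.30 ± 0.06) were all lower at D28 than at D5, with no overlap between the ages.

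**Figure D3:**
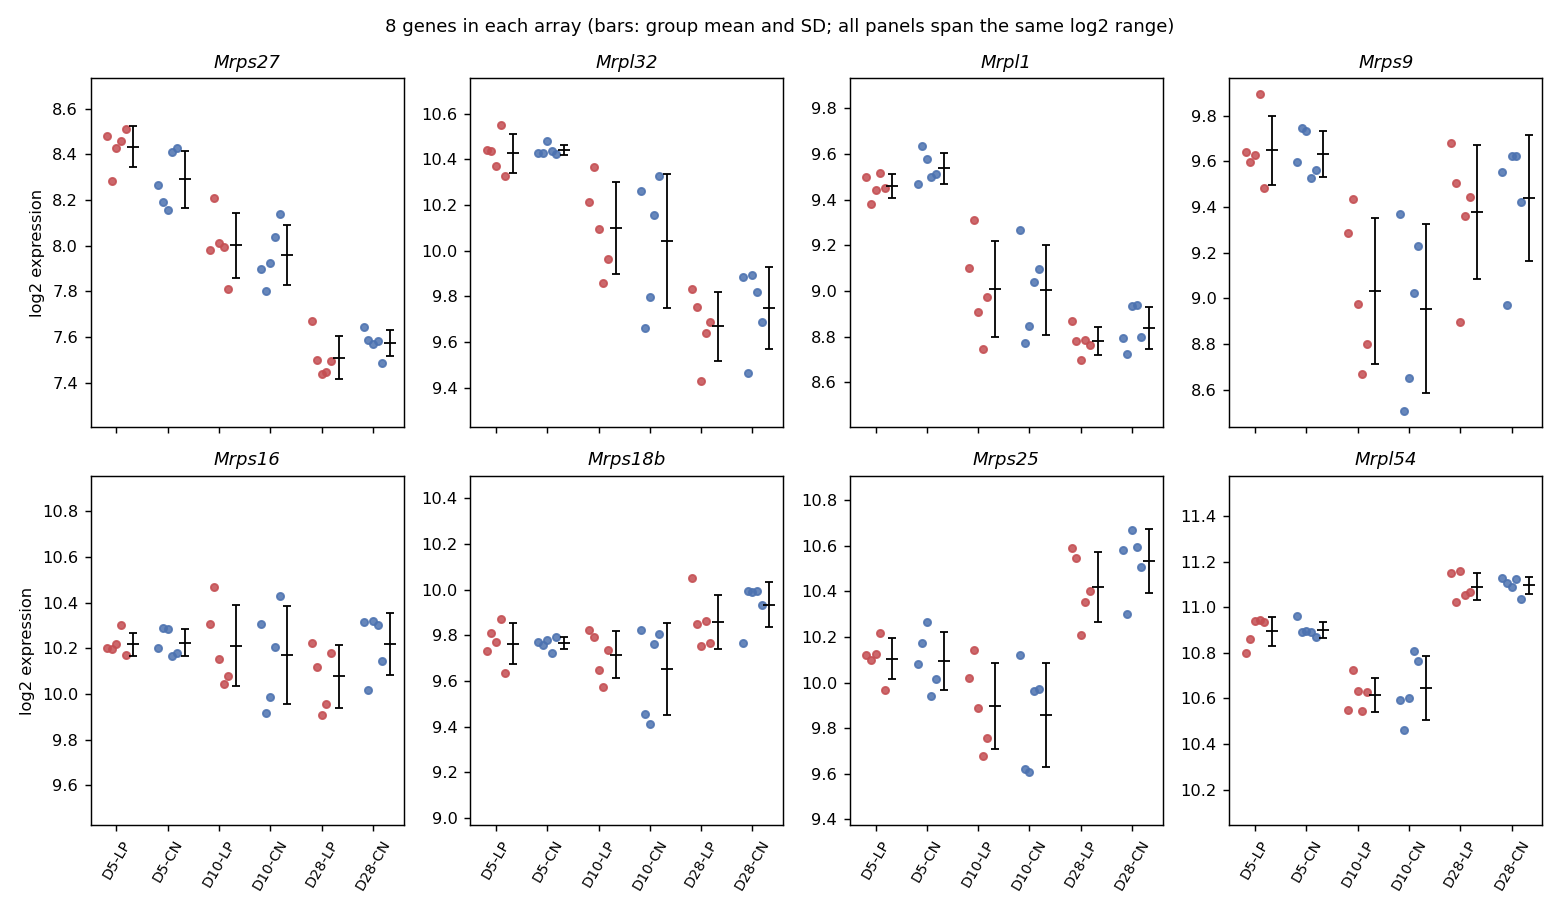
Log2 expression of 8 genes in each array (vertical axes, all of the same length) by group, with the group mean and SD (n = 5 arrays). *Mrps27*, *Mrpl32* and *Mrpl1* were lower at each later age, *Mrps9* was lowest at D10, *Mrps16* and *Mrps18b* changed little at D10, and *Mrps25* and *Mrpl54* were highest at D28.

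Other probe sets of the same gene were read as a check. The 18 genes with several probe sets had 24 others, of which 21, 15 and 18 had the sign of the chosen one in D10 minus D5, D28 minus D10 and D28 minus D5. Both were called in opposite directions for *Mrpl40* and *Mrps24* in the first comparison, for *Mrpl51* and *Mrpl52* in the second and for *Mrpl12*, *Mrpl52* and *Mrps24* in the third, so the direction of these genes depends on the probe set. For *Mrpl12* the second probe set gave 0.17 in D28 minus D5. Symbols written in lower case fell outside the rule. Of these, *mrpl9* (−0.42), *mrpl11* (−0.43) and *mrpl24* (−0.21) were all lower in D10 minus D5.

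A further 5 mitoribosomal proteins carry other names. All 5 were lower in D10 minus D5. *Dap3*, a GTP-binding small subunit protein, ranged from 8.81 to 8.95 at D28, against 9.26 to 9.46 at D5 (−0.46 ± 0.03), *Chchd1* was also lower (−0.46 ± 0.06), and *Gadd45gip1*, a large subunit protein near the exit tunnel, was higher (0.25 ± 0.04). Of 27 assembly factors, 19 were lower and 1 higher in D10 minus D5, where 39.3% of all probe sets were lower and 18.4% higher. In D28 minus D5, 13 were lower and 4 higher, where 41% of all probe sets were lower and 33.5% higher. The largest were *Gtpbp10* (−1.04 ± 0.08), *Fastkd2* (−0.79 ± 0.10) and *Ddx28* (−0.66 ± 0.07), which act on the large subunit and its RNA. Of 15 translation factors, 9 were lower and 1 higher in D28 minus D5, among them the initiation factor *Mtif2* (−0.61 ± 0.04), the release factor *Mtrf1* (−0.79 ± 0.10) and the messenger-binding *Slirp* (−0.76 ± 0.05). Of 16 genes for charging mitochondrial tRNAs, 8 were lower, such as *Wars2* (−0.56 ± 0.04) and *Fars2* (−0.55 ± 0.04), and 2 higher, such as *Gatb* (0.56 ± 0.09).

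Genes for mitochondrial DNA and its transcription were called in both directions in the same comparison. The single-strand binding protein *Ssbp1* (−1.06 ± 0.06) and the packaging factor *Tfam* (−0.64 ± 0.07) were lower, and the RNA polymerase *Polrmt* was higher, with 8.01 to 8.13 at D28, against 7.09 to 7.39 at D5 (0.82 ± 0.04). In all, 5 of the 12 were lower and 2 higher, and of 10 regulators of mitochondrial gene expression 4 were lower and 3 higher. These counts are small and stand beside 41% lower and 33.5% higher over all probe sets. The coactivator *Ppargc1b* ranged from 8.31 to 9.16 at D28 (median 8.78), against 6.98 to 7.64 at D5 (median 7.33), a difference of 1.48 ± 0.08, and the nuclear receptor *Esrra* was higher by 0.79 ± 0.04. *Gabpa*, of the factor that binds the ETS letters (−0.71 ± 0.05), *Nrf1* (−0.40) and *Yy1* (−0.23) were lower.

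The genes for cytosolic ribosomes and the respiratory chain also had medians below 0 in D10 minus D5, and differed from the members after D10. The 47 cytosolic ribosomal protein genes had medians of −0.30, −0.36 and −0.62 in D10 minus D5, D28 minus D10 and D28 minus D5. Of the 47, 45 were lower at D28 than at D5, where 41% of all probe sets were. The 78 respiratory chain and ATP synthase genes had medians of −0.22, 0.21 and 0.02. At D28, 28 of them were higher and 21 lower than at D5, where 33.5% of all probe sets were higher and 41% lower. The respiratory mean minus the mitoribosomal mean of an array, which is read only between ages, was 1.38 to 1.45 in D5 arrays, 1.50 to 1.59 in D10 arrays and 1.61 to 1.69 in D28 arrays, 3 ranges that do not overlap. Under quantile normalization the D28 minus D5 medians were −0.09 for mitochondrial ribosomal, −0.43 for cytosolic ribosomal and 0.14 for respiratory genes, in the same order. In whole kidney, fewer cells of a type and less RNA per cell cannot be told apart. Of 10 proximal tubule markers 7 were higher and none lower in D28 minus D5, and of 9 collecting duct and inner medulla markers 6 were higher and 2 lower. Their part in these results was not tested.

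Within an age the levels of the genes varied together from array to array, least at D5. With the group means removed, the median correlation between pairs of members over 10 arrays was 0.33 among the D5 arrays, 0.88 for D10 and 0.66 for D28, and the first principal component held 54.5%, 88.5% and 74.6% of their variance. The same median correlation was 0.55, 0.89 and 0.56 among the respiratory chain genes and 0.61, 0.55 and 0.30 among the cytosolic ribosomal protein genes. These points share arrays and RNA samples and carry no test. The median SD of a member was 0.06, 0.16 and 0.10 at the 3 ages, against 0.12, 0.13 and 0.12 over all probe sets. At D10 the arrays parted along a measure of RNA integrity, the level of the control probes at the 3′ end of *Actb* and *Gapdh* transcripts minus that at the 5′ end, which is larger in degraded RNA. A bound of 0.6 was set after the values were seen. The 5 D10 arrays at 0.62 to 0.78 (3 LP and 2 CN) had member means of 9.34 to 9.57, and the 5 at 0.43 to 0.52 (2 LP and 3 CN) had 9.64 to 9.79. Of the 73 genes, 71 were lower on average in the arrays of high 3′ minus 5′ difference. In 0 genes did all these arrays lie above all the other D10 arrays (2790 of the 31042 probe sets). In 51 genes (69.9%, against 8.64% of all probe sets) they all lay below them. The same held for 54 of the 78 respiratory chain genes and 4 of the 47 cytosolic ribosomal protein genes. The mean of the proximal tubule markers was 11.0 to 11.4 in the arrays of high difference and 11.3 to 11.9 in the others. Other measures parted the same arrays without overlap. The mean of 4 podocyte markers was 9.96 to 10.06 in the arrays of high difference and 9.38 to 9.85 in the others. The median over all probe sets was also higher in each array of high difference than in any other D10 array. The ranges of the remaining marker lists overlapped. What part RNA quality or tissue makeup had in the split was not tested.

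**Figure D4:**
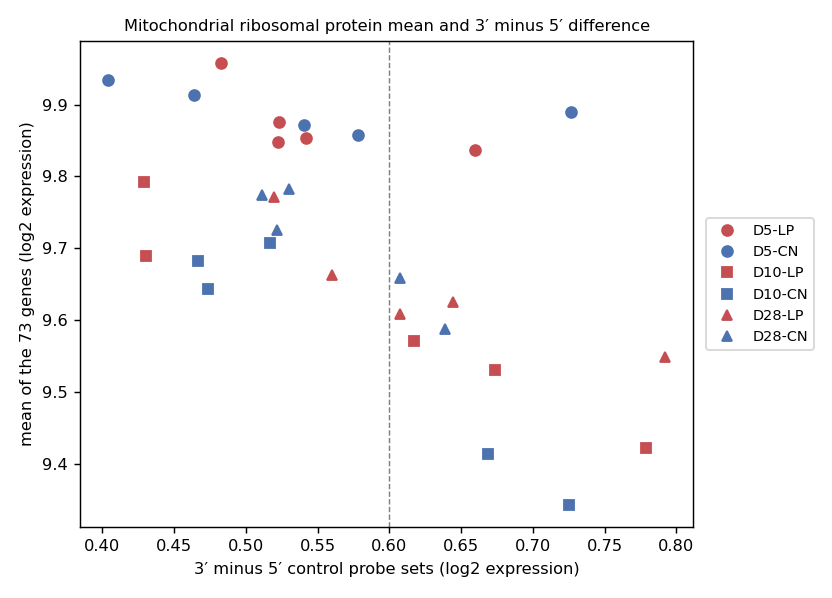
Mean log2 expression of the 73 genes in each array (vertical axis) against the 3′ minus 5′ difference of the control probe sets (horizontal axis, log2), by group. The dashed line marks 0.6. At D10 (squares) and D28 (triangles) the arrays right of the line have the lower means (9.34 to 9.57 and 9.55 to 9.66), while the D5 arrays (circles) lie between 9.84 and 9.96 on both sides.

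The comparisons of ages were also run without the 5 D10 arrays of high 3′ minus 5′ difference. In D10 minus D5, 52 of the 67 lower calls were kept, the median was −0.18 and 33.2% of all probe sets were lower, and *Mrps7* (0.18) and *Mrpl36* (0.26) were called higher. *Mrps9* then differed by −0.36 ± 0.11 and *Mrps35* by −0.36 ± 0.04. In D28 minus D10, 15 genes were then higher in place of 34 and 24 lower in place of 14, where 35.1% of all probe sets were higher and 31.4% lower, and the median was −0.00. The 15 were all among the 34 and included *Mrps25*, *Mrpl54*, *Mrps15*, *Mrpl34*, *Mrpl16* and *Mrps6*. The 14 lower calls all remained. For the respiratory chain genes 44 of 78 were still higher. This fit keeps the 5 D28 arrays of high difference, which also have the lower member means, so it was repeated without all 12 arrays at 0.6 or more. In D28 minus D10, 23 genes were then higher and 20 lower, where 33.1% of all probe sets were higher and 30.3% lower, with a median of 0.05, and 16 of the 33 genes lower at D10 and higher at D28 and 12 of the 13 lower at both steps kept their pattern. In D10 minus D5, 53 were lower and 3 higher with a median of −0.18, where 33.4% of all probe sets were lower and 14.0% higher. In D28 minus D5, 35 were lower and 11 higher with a median of −0.09. Of all probe sets, 39.4% were lower and 31.8% higher in that comparison.

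The study compared the maternal diets at each age. No member passed an adjusted p of 0.2 (limma, Benjamini-Hochberg) between LP and CN pups at D5, D10 or D28, where 0.00644%, 0% and 0% of all probe sets did. The smallest adjusted p values of a member were 0.398, 0.968 and 0.77, and 3, 1 and 0 members had an unadjusted p under 0.05. Averaged over the ages none was called (0.312% of all probe sets), with 1 member at an unadjusted p under 0.05. None was called in a diet by age contrast (0% of all probe sets), where the smallest p values were those of *Mrps18c* and *Mrpl49* (0.22) for D10 against D5, of *Mrps2* (−0.20) and *Mrpl18* (−0.20) for D28 against D10, and of *Mrps27* (−0.21) and *Mrps35* (−0.17) for D28 against D5. The study used rank products at a false discovery rate of 0.2. Run here, rank products called 651, 228 and 940 of the 31042 probe sets at D5, D10 and D28. The only member among these was *Mrps18c* at D5.

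*Mrps18c*, of the small subunit, had the smallest p at D5. Its levels were 8.13, 8.45, 8.23, 8.62 and 8.09 in the D5-LP arrays, against 8.66, 8.71, 8.73, 8.67 and 8.54 in the D5-CN arrays. All 5 LP arrays lay below the CN mean, and the groups overlapped by 1 array. The difference was −0.36 ± 0.09 (adjusted p = 0.398, 2-sided exact permutation test p = 0.0159). It was 0.01 ± 0.21 at D10 and −0.12 ± 0.12 at D28, and the change of the diet difference between D5 and D10 was not called (0.37 ± 0.23, adjusted p = 0.999). Rank products, with 100 permutations, called *Mrps18c* lower at D5 (false discovery rate 0.0509), the 1 call among the 73 members (1.37%), where they called 2.10% of all probe sets. The other 2 probe sets of the gene had differences of −0.18 and 0.07 at D5.

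In *Mrps12*, whose protein lies at the decoding site, and in *Mrpl34* the D5 groups did not overlap (0.586% of all probe sets were lower in LP without overlap). No member was higher without overlap at D5 (0.892% of all probe sets), and at D10 and D28 none was higher (0.361% and 0.296%) or lower (0.754% and 0.561%) without it. *Mrps12* had 10.01, 10.09, 10.07, 10.07 and 10.14 in the D5-LP arrays, against 10.19, 10.21, 10.19, 10.18 and 10.15 in the D5-CN arrays. That is −0.11 ± 0.04 (adjusted p = 0.578, exact permutation p = 0.00794, the smallest that 5 arrays against 5 can give), and the difference was 0.00 ± 0.09 at D10. *Mrpl34* had 9.42, 9.42, 9.46, 9.47 and 9.49 in D5-LP, against 9.52, 9.50, 9.51, 9.52 and 9.53 in D5-CN (−0.06 ± 0.04, adjusted p = 0.733). *Mrpl42*, a large subunit protein without a bacterial counterpart, followed at D5 (−0.13 ± 0.06, adjusted p = 0.589).

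*Mrps2*, of the small subunit, stood first at D10. Its levels were 8.63, 8.69, 8.65, 8.60 and 8.77 in the D10-LP arrays, against 8.67, 8.37, 8.43, 8.47 and 8.60 in the D10-CN arrays (0.16 ± 0.07, adjusted p = 0.968, exact permutation p = 0.0556). It differed in the same direction at D5 (0.11 ± 0.06) and by −0.04 ± 0.07 at D28. *Mrpl47* (0.14 ± 0.08) and *Mrps35* (0.12 ± 0.09) came next. At D28 *Mrpl41* had 10.69, 10.62, 10.73, 10.67 and 10.75 in the D28-LP arrays, against 10.78, 10.76, 10.79, 10.81 and 10.74 in the D28-CN arrays (−0.09 ± 0.04, adjusted p = 0.77, exact permutation p = 0.0159), and the groups overlapped by 1 array. *Mrpl27* (−0.14 ± 0.07) and *Mrpl37* (−0.10 ± 0.05) followed. Averaged over the ages, *Mrps21* had the smallest p (−0.06 ± 0.03, adjusted p = 0.426).

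Most members differed in one direction at D10 and at D28, by little. At D5, 25 members had a higher mean in LP (49.7% of all probe sets) and 48 a lower one (50.3%), with a median of −0.02. At D10, 60 were higher (48.4% of all probe sets) and 13 lower, with a median of 0.04, and at D28, 7 were higher and 66 lower (56.2% of all probe sets), with a median of −0.06. The members are not independent, since they move together between arrays, and these counts carry no test. The D10 direction was not stable, with a median of −0.02 without D10-CN replicate 2, −0.01 without D10-LP replicate 2, −0.03 with array weights and 0.09 without D10-LP replicate 4.

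**Figure D5:**
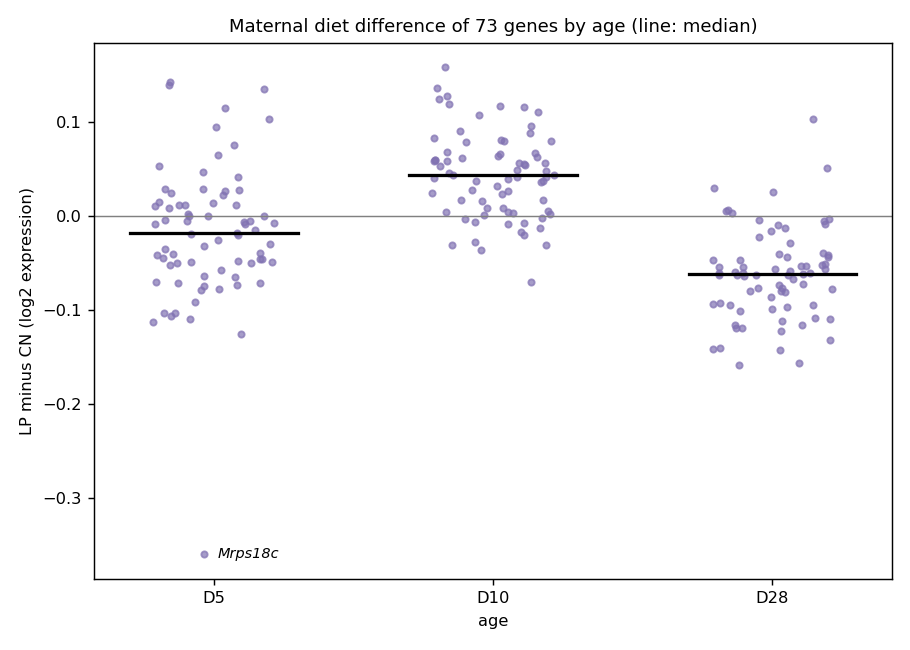
LP minus CN difference in log2 expression of each of the 73 genes (points, vertical axis) at D5, D10 and D28 (horizontal axis), with the median as a line. The medians are −0.02, 0.04 and −0.06, and *Mrps18c* at D5 stands apart at −0.36.

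At D28 other measures moved with the diet groups. The member mean was 9.55 to 9.77 in the D28-LP arrays and 9.59 to 9.78 in the D28-CN arrays. The 3′ minus 5′ difference was 0.52 to 0.79 in D28-LP and 0.51 to 0.64 in D28-CN, and 3 LP against 2 CN arrays were at 0.6 or more. All 10 proximal tubule markers had a lower mean and 8 of 9 collecting duct and inner medulla markers a higher mean in D28-LP, with none called. The collecting duct and inner medulla markers also had higher means in LP at D5 and D10 (9 of 9 each). The mean of the collecting duct and inner medulla markers was 10.8 to 11.6 in D28-LP and 10.5 to 11.2 in D28-CN. With the 3′ minus 5′ difference as a covariate, 46 members were lower in LP (52.6% of all probe sets) and the median was −0.01. With a medulla minus cortex score as a covariate 49 were lower (52.2% of all probe sets) and the median was −0.02. At D10 the medians under these covariates were 0.06 and 0.08. Without a covariate, quantile normalization gave 69 lower at D28 (55.4% of all probe sets) and a median of −0.08. Leaving out each D28 array gave medians of −0.10 to −0.04. Of the respiratory chain genes 76 of 78 also had a lower mean in D28-LP, while 37 of 47 cytosolic ribosomal protein genes had a higher one. The part of RNA integrity or tissue makeup in these differences was not tested further.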

How the data were processed

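Kidney RNA was measured on 30 arrays, and the authors deposited a log2 expression value for each of 31099 probe sets, normalized by them in R (the names of their result tables give qFARMS). After 57 control probe sets were left out, 31042 entered 2-sided moderated tests (limma 3.58.1, R 4.3.3, with the data.table package, version 1.17.8) with neither a further normalization nor a filter. The diets were compared within each age, while the 6 group means of a single fit gave the ages, the averaged diet and the change of the diet difference with age. P-values were adjusted by Benjamini-Hochberg over all probe sets, at 0.2 for diet and 0.05 for age. The 0.2 is the false discovery rate that the study set for its rank products, which is another test. Single differences between diets were tested by exact permutation over 252 splits of 5 arrays against 5. The authors' rank product tables hold comparisons and 30 array columns that name no sample, and neither was used. Symbols came from GEO's platform annotation, with 1 symbol for 20826 probe sets, several for 436 and none for 9780.

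The genes named were, for each age comparison, up to 5 in each direction with the largest difference among called genes without overlap; for the diet, the 3 with the smallest p where none was called, and 2 for each diet by age contrast; members with a known role; up to 3 genes of each pathway list with the largest D28 minus D5 difference; members whose probe sets disagreed; and members called at both steps in opposite directions. *Mrpl34* for the diet, *Mrpl30*, *Mrps6*, *Nrf1*, *Yy1* and the members given by pattern were named after their values were seen. The members and gene lists were chosen with earlier results of these data known. Alternatives were median centring, quantile normalization, a filter on dim probe sets, other choices of probe set, trend and robust variance, array weights, rank products (25 pairs), the methods' t-test, covariates, a block for replicate number, and fits without 1 array each. The fits within an age and of all groups were tested on simulated data in which chosen genes had been changed. The number of arrays limits the precision.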

Additional observations from a re-analysis of the deposited data

Results flagged for a closer look

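In 10 of 210 groups of 5 arrays tested over the named members, 1 array stood apart from the other 4 by a gap of more than 0.71 of the group's range, and chance gives about 1 in 20. In D28-LP, replicate 1 was high in *Mrps27* (gap 0.738 of the range, 7.67 against 7.44 to 7.50 in the others), in *Mrps2* (0.795, 8.88 against 8.56 to 8.62) and in *Mrpl12* (0.821, 10.80 against 10.61 to 10.65). In D28-CN, replicate 2 was low in *Mrps30* (0.721, 9.53 against 9.75 to 9.83), in *Mrpl16* (0.737, 10.18 against 10.32 to 10.37) and in *Mrpl44* (0.718, 8.50 against 8.69 to 8.76), and replicate 1 was low in *Mrps18b* (0.729, 9.76 against 9.93 to 9.99). In D10-LP, replicate 4 was low in *Mrpl47* (0.789, 8.62 against 8.90 to 8.98). In D5-CN, replicate 1 was high in *Mrpl54* (0.712, 10.96 against 10.87 to 10.90) and replicate 3 was high in *Mrpl32* (0.766, 10.48 against 10.42 to 10.44). The 3′ minus 5′ difference was 0.52 in D28-LP replicate 1, 0.64 in D28-CN replicate 2, 0.52 in D28-CN replicate 1, 0.78 in D10-LP replicate 4, 0.73 in D5-CN replicate 1 and 0.40 in D5-CN replicate 3.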

How the results depend on the processing

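Of the counts and medians recomputed under the alternatives, 801 values kept within 1.5 times the main count or within the replicate spread and 28 did not. No called value among these changed sign, but some medians changed sign: D28 minus D10 (−0.00 without the D10 arrays of high 3′ minus 5′ difference), the diet at D5 (0.00 with the medulla minus cortex covariate), the diet at D10 (−0.03 with array weights, −0.02 without D10-CN replicate 2, −0.01 without D10-LP replicate 2) and the change of the diet difference between D5 and D10 (−0.02 with array weights). For the diet, the methods' t-test without adjustment gave 8 members at D5, 1 at D10 and 1 at D28, rank products gave 1 at D5, and array weights gave 7 (9.59%) for the averaged diet effect, where they called 12.5% of all probe sets. In D10 minus D5, higher calls numbered 2 with quantile normalization, 2 with the most variable probe set, 1 with array weights, 1 with the 3′ minus 5′ covariate, 2 without the D10 arrays and 3 without all arrays of high 3′ minus 5′ difference, 1 at a threshold of 0.2, and 0 to 1 when each array was left out (1 without D10-CN replicate 2), and the median was −0.19 with quantile normalization and −0.18 both without the D10 arrays and without all arrays of high difference. In D28 minus D10, higher calls numbered 15 without those D10 arrays and 18 in the LP arrays alone, and lower calls 24 without those D10 arrays and 4 in the CN arrays alone. In D28 minus D5, higher calls numbered 15 with quantile normalization, 5 in the CN and 4 in the LP arrays alone. With a difference of at least 0.5 required, 3 were lower in D10 minus D5, 2 higher and 0 lower in D28 minus D10, and 0 higher and 11 lower in D28 minus D5. When each array was left out, the lower calls of D10 minus D5 ranged from 65 to 68, the higher calls of D28 minus D10 from 30 to 39 and the lower calls of D28 minus D5 from 41 to 45. Except where a value above states it, the cause was not tested. Arrays of different groups that share a replicate number had deviations that correlated at −0.70 to 0.65, so the numbers did not pair the samples, and the fit with replicate number as a block term gave 66 lower calls in D10 minus D5, 42 in D28 minus D5 and none for the diet. For single genes, 2896 values kept their direction and side of the threshold, 47 lost the call and 5 of uncalled genes moved. Calls were lost for *Mrps11* in D28 minus D10, which lost its call in most of the fits without 1 array (0.10 to 0.12), and *Mrps30* in D28 minus D5 with quantile normalization (−0.13). The 3′ minus 5′ covariate and the leaving out of arrays by this difference were chosen after seeing the data.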
